A study of Mus musculus with 2 samples.

Results

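A set of 7 marker genes used to recognise resident and alternatively activated macrophages were followed in spatial transcriptomes of healing skull bone. They were chosen by symbol, and all 7 of the 7 listed symbols were found among the 31053 genes of both count matrices. Of these, 4 encode lectins or lectin-like proteins, which bind sugars: Mrc1 (the mannose receptor CD206), Clec10a (a receptor for galactose and N-acetylgalactosamine), Cd209a (a relative of human DC-SIGN) and Chil3 (the secreted chitinase-like protein Ym1). Cd163 encodes the scavenger receptor for haemoglobin bound to haptoglobin, Folr2 a folate receptor, and Retnla the secreted resistin-like protein also called RELM alpha or Fizz1.

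Resident macrophages settle in tissues, many of them before birth, and clear dead cells, iron and debris. In connective tissue, fat and the membranes around the brain, they are usually recognised by Mrc1, Cd163 and Folr2. Interleukin 4 and interleukin 13 drive the state called alternative activation through the transcription factor STAT6, and Retnla, Chil3, Clec10a and Mrc1 are the classic mouse genes of that state. Several of these genes are shared with other cells, since Cd209a and Clec10a also mark dendritic cells, and Chil3 is known from monocytes and neutrophils.

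The tissue was mouse calvarial bone, from the roof of the skull, taken at day 7 from a bone defect. The Blank group was a defect repaired without material, and the Col_nHA group was a defect repaired with a collagen/nHA material. Each group held 1 frozen section, and the strain, age and number of animals are not given in the sources used here. With 1 section per group there is no replicate check and no p-value, so each ratio compares 2 libraries and not 2 treatments.

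RNA was counted as unique molecular identifiers (UMIs) on an array of barcoded spots, and a spot can hold several cells. Spots were the barcodes with at least about 3700 UMIs in Blank and 4700 in Col_nHA (to the nearest 100), which gave 2249 and 2471 spots with medians of 9733 and 13815 UMIs. They held 30705849 and 40202268 UMIs, and levels are given as UMIs per 1000000 of these (CPM). The sections differed in the tissues they held: 30.1% of Blank and 14.1% of Col_nHA spots had over 2% of their UMIs in genes of fat, skin, muscle, nerve, brain, meninges and choroid plexus. The bone genes Bglap and Col1a1 were present in both, Bglap at 578 and 233 CPM and Col1a1 at 31503 and 21096 CPM. Ratios are Col_nHA over Blank, and bracketed ranges are exact 95% intervals for counting error alone.

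On GRCm38.p6, the assembly behind mm10, the genes lie on 7 chromosomes. Mrc1 lies on chromosome 2 from 14229414 to 14332023, Cd163 on chromosome 6 from 124304636 to 124330529, and Folr2 on chromosome 7 from 101839988 to 101857190. Clec10a lies on chromosome 11 from 70166623 to 70170836 and Cd209a on chromosome 8 from 3743395 to 3748984. Retnla lies on chromosome 16 from 48842609 to 48844461, and Chil3 on chromosome 3 from 106147554 to 106167564. The values are sums over whole genes.

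The first comparison asked how the level of each gene differed between the defect repaired with the material and the defect without. The 7 genes did not move as 1 group. Retnla, Clec10a, Cd209a and Cd163 were at least 2-fold lower in Col_nHA, Chil3 was at least 2-fold higher, and Mrc1 and Folr2 differed by less than 1.5-fold. Of the 9855 genes that reached 10 CPM in either section, 3.40% were lower by 2-fold or more and 1.83% higher by as much. In all 6 members reached 10 CPM and Cd163 did not. The median log2 ratio was -1.27 over all 7 members and 0.02 over the 9855 genes, and since the members were chosen with earlier results of these data known, nothing is read from that contrast. In summed spots, fewer macrophages and less RNA per macrophage cannot be told apart.

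**Figure D1:**
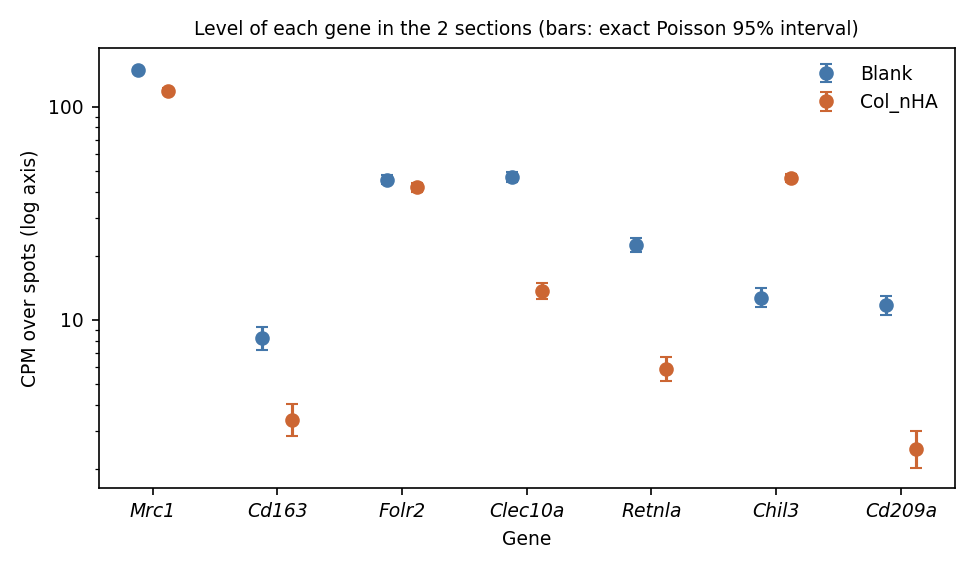
Level of each gene in CPM on a log axis, as 1 point per section (blue Blank, orange Col_nHA) with its exact Poisson 95% interval. Chil3 is the 1 gene whose Col_nHA point lies above its Blank point, and the points of Folr2 lie close together at 45.6 and 42.0 CPM.

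Among the receptors of resident macrophages, Mrc1 stood at 148 CPM (144 to 153) in Blank and 119 CPM (115 to 122) in Col_nHA, from 4550 and 4773 UMIs. The ratio was 0.801 (0.769 to 0.835). Folr2 stood at 45.6 CPM (43.2 to 48.0) and 42.0 CPM (39.98 to 44.01), a ratio of 0.920 (0.857 to 0.989). Both were slightly lower with the material, but once spots rich in other tissues were left out the log2 ratio of Folr2 was 0.00 and no direction is drawn for it. Cd163 was scarce in both sections, with 252 UMIs in Blank and 137 in Col_nHA, or 8.21 CPM (7.22 to 9.29) and 3.41 CPM (2.86 to 4.03). Its ratio was 0.415 (0.335 to 0.513). The 3 receptors usually read together as a resident signature therefore differed in their ratios, with the interval of Cd163 below those of Mrc1 and Folr2.

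The lectin receptors shared with dendritic cells were both lower in Col_nHA. Clec10a stood at 46.9 CPM (44.5 to 49.4) in Blank and 13.7 CPM (12.5 to 14.8) in Col_nHA, a ratio of 0.291 (0.263 to 0.321). Cd209a stood at 11.7 CPM (10.5 to 13) and 2.49 CPM (2.02 to 3.03), a ratio of 0.212 (0.168 to 0.265) from 360 and 100 UMIs. Their close relatives lay on the same side. Mgl2, a near-identical neighbour of Clec10a, had a ratio of 0.377 (0.319 to 0.444). The 6 other Cd209 genes counted, Cd209b to Cd209g, had ratios from 0.0588 (0.00676 to 0.235, from 26 and 2 UMIs) for Cd209e to 0.592 for Cd209f, each below 10 CPM, and the interval of Cd209c (0.177 to 1.12) included 1. How reads shared between these similar genes were assigned was not examined.

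Dendritic cell genes had ratios on both sides of 1, though most lay below it. Of 16 listed dendritic cell genes 9 reached 10 CPM, 6 with ratios below 1 and 3 above. By 2-fold or more, 2 were lower and 1 higher, and the median log2 ratio was -0.61. The antigen presentation gene H2-Ab1 had a ratio of 0.483 and Dpp4 of 0.289, whereas the integrin gene Itgax stood at 2.57. Among the listed genes below 10 CPM, Zbtb46 had a ratio of 1.09 (0.895 to 1.32). All the others had ratios from 0.216 for Xcr1 to 0.641 for Klrd1. The list, without the members, took 0.174% of Blank and 0.105% of Col_nHA UMIs. Whether these cells carried part of the Clec10a and Cd209a difference was not tested.

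The secreted proteins Retnla and Chil3 went in opposite directions. Retnla stood at 22.5 CPM (20.9 to 24.2) in Blank and 5.90 CPM (5.17 to 6.70) in Col_nHA, a ratio of 0.262 (0.225 to 0.304). Chil3 stood at 12.7 CPM (11.5 to 14.1) and 46.4 CPM (44.4 to 48.6), a ratio of 3.65 (3.27 to 4.08). Both are textbook targets of STAT6, which binds paired TTC and GAA motifs with 3 or 4 bases between them, so the 250 bases before each start site are shown. They are read 5′ to 3′ on the gene's strand in lower case, with each match to TTC and GAA, 3 or 4 bases of any kind apart, in capitals. The sequences are from RefSeq on GRCm38.p6, at chr16:48842359-48842608 on the plus strand and chr3:106167565-106167814 on the minus strand.
Retnla: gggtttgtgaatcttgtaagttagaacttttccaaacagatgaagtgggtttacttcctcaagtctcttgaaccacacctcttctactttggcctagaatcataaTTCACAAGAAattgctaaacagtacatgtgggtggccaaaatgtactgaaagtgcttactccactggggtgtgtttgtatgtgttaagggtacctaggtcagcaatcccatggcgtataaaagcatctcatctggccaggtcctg
Chil3: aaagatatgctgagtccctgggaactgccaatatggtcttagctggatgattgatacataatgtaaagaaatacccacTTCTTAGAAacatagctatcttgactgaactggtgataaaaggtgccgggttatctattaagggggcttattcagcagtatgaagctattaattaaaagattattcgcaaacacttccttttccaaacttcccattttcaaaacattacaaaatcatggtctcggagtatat

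Retnla held 1 match with 4 bases between the motifs, TTCACAAGAA, 145 bases before its start. Chil3 held 1 match with 3 bases between them, TTCTTAGAA, 172 bases before its start, and its neighbour Chil4 held the same letters 200 bases before its own. RefSeq windows of 300 bases, from 250 before to 50 after the start, were matched for 6 of the 7 genes, all but Clec10a. Those of Mrc1, Cd163, Folr2 and Cd209a held neither motif. Both motifs read the same on either strand, and of 32817 windows 6.94% held the motif with 4 bases between and 8.29% the motif with 3 (TTCNNNGAA). A match describes letters and is no evidence of binding.

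Other genes of the interleukin 4 and 13 pathway showed no shared direction. The cytokine genes were near absent, Il4 with 2 UMIs in Blank and 1 in Col_nHA and Il13 with 1 and 3. Of 13 listed pathway genes 8 reached 10 CPM, and none of them differed by 2-fold. The receptor genes Il4ra and Il2rg had ratios of 1.68 (1.59 to 1.78) and 1.48 (1.38 to 1.58), Stat6 itself 1.01 (0.949 to 1.08), and Il33, a cytokine released from damaged cells, 0.940. Among 18 other genes of alternative activation 9 reached 10 CPM, with 1 at least 2-fold higher, 2 at least 2-fold lower and a median log2 ratio of 0.10. The higher 1 was Arg1, arginase 1, from 16.8 CPM in Blank to 136 CPM in Col_nHA, and the lower were Mgl2 and the transcription factor gene Klf4 at 0.444. Chil4, which is nearly identical to Chil3, had 0 UMIs in Blank and 21 in Col_nHA.

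A list of 24 further resident macrophage genes lay mostly below 1. Of the 15 that reached 10 CPM, 14 had ratios below 1 and 4 were lower by 2-fold or more, while none was higher by as much, with a median log2 ratio of -0.54. The selenium carrier gene Selenop went from 846 CPM in Blank to 377 CPM in Col_nHA, a ratio of 0.445, and the chemokine gene Ccl8 had a ratio of 0.758. The hyaluronan receptor gene Lyve1 stood at 0.447 and the phagocytosis bridge gene Gas6 at 0.475. The 1 gene above 1 was Pf4, platelet factor 4, at 1.44 (1.40 to 1.48). Genes common to all macrophages did not share this direction: of 14 such genes 13 reached 10 CPM, none differed by 2-fold and 12 had ratios above 1. They took 0.706% of Blank and 0.965% of Col_nHA UMIs.

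Set against these common macrophage transcripts, the ratio of every gene falls by the same factor, because they took a larger share of Col_nHA UMIs. The median log2 ratio over all 9855 genes went from 0.02 to -0.44 on this scale. The shift itself therefore says nothing about the members. Mrc1 had 21.0 UMIs per 1000 macrophage UMIs in Blank and 12.3 in Col_nHA, a ratio of 0.586 (0.563 to 0.610). Folr2 had 6.46 and 4.35, a ratio of 0.673 (0.627 to 0.723), and Retnla 3.19 and 0.611, a ratio of 0.192 (0.165 to 0.222). Chil3 remained higher on this scale, with 1.80 and 4.81 and a ratio of 2.67 (2.39 to 2.98). By CPM, a list of 7 genes of the colony-stimulating factors that maintain macrophages and of their receptors lay mostly above 1. Of the 6 that reached 10 CPM, 5 had ratios above 1 and 1 below. None differed by 2-fold, and the median log2 ratio was 0.53. Csf1 had a ratio of 1.36 and Il34, the other ligand of the same receptor, 0.628 (0.551 to 0.715). The receptor gene Csf1r itself stood at 1.17.

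The next comparison asked where in each section the genes lay. Both sections were clustered together without the 7 genes, which gave 16 regions, named here by number and leading gene. Only 3 regions held at least 50 spots of each section, so most regions belong to 1 section. Orders of levels are among regions with at least 50 spots of the section, and smaller ones were left out of them. No region carries a cell type name, and no spot positions were used.

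**Figure D2:**
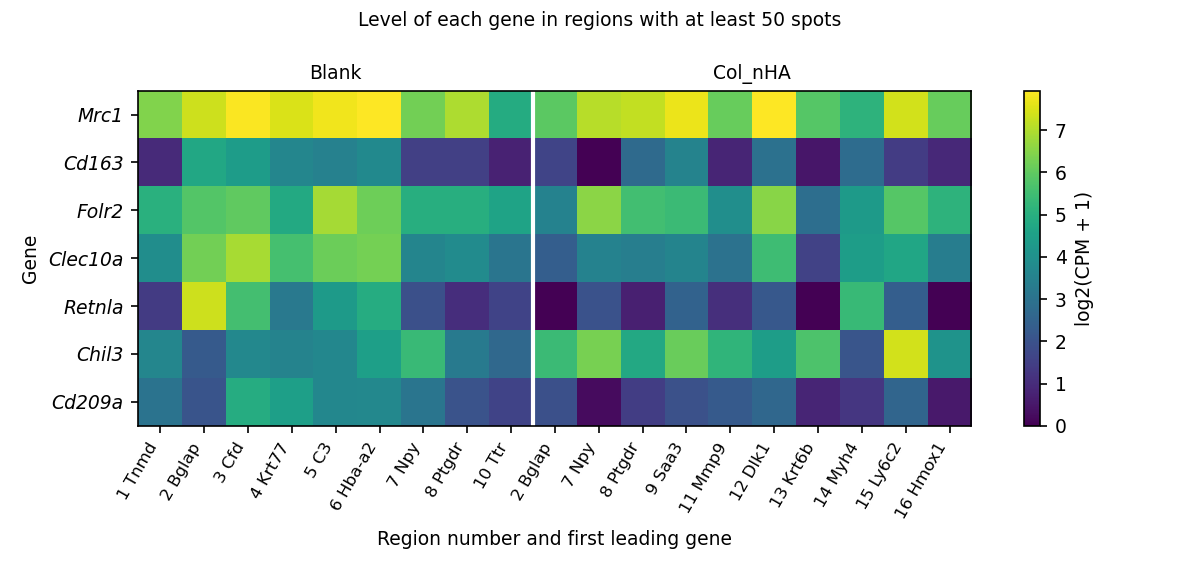
Level of each gene as log2(CPM + 1) in the 9 Blank and 10 Col_nHA region sums with at least 50 spots, with regions labelled by number and first leading gene. Retnla is brightest in the Bglap-led region of Blank and dark in the same region of Col_nHA, and Chil3 is brightest in the Ly6c2-led region of Col_nHA.

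In Blank, Mrc1 was highest in region 6 (leading genes Hba-a2 and Alas2, genes of red blood cells) at 244 CPM (228 to 261). It was nearly as high in region 3, led by the fat gene Cfd, at 236 CPM (223 to 250), and the intervals overlapped. In Col_nHA, Mrc1 was highest at 239 CPM (222 to 257) in region 12, led by Dlk1, and at 207 CPM (192 to 223) in region 9, led by Saa3. These 2 intervals also overlapped. Its lowest levels were 28.5 CPM in region 10 of Blank, led by the choroid plexus gene Ttr, and 34.1 CPM in region 14 of Col_nHA, led by the muscle myosin gene Myh4. Mrc1 was thus counted in every region of at least 50 spots.

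Folr2 peaked elsewhere. In Blank it was highest at 115 CPM (97.7 to 134) in region 5, led by the complement gene C3, with an interval above that of region 6 at 71.1 CPM. In Col_nHA it was highest in region 7, led by Npy and Spp1, at 92.4 CPM (84.5 to 101), and in region 12 at 91.4 CPM (81.0 to 103), which could not be told apart. Clec10a was highest in region 3 of Blank at 118 CPM (109 to 128) and in region 12 of Col_nHA at 43.8 CPM (36.7 to 51.8). Each of these Clec10a intervals lay above those of the other regions with at least 50 spots of the section. With a resolution of 0.3 the highest Blank level of Folr2 was 69.1 CPM. With a resolution of 1.0 its highest Col_nHA level was 128 CPM (116 to 140) in an Npy-led region. That interval lay above the one of the Dlk1-led region, at 88.9 CPM (78.8 to 99.9). At that resolution the highest Blank levels of Clec10a and Mrc1 lay in a region led by Myog, at 147 CPM (136 to 159) and 279 CPM (264 to 295).

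Cd163 and Cd209a were low throughout. Cd163 reached 25.9 CPM (18.6 to 35.1) in region 2 of Blank, led by the osteocalcin gene Bglap, and 10.7 CPM (7.55 to 14.8) in region 9 of Col_nHA. Cd209a reached 29.1 CPM (24.7 to 34.1) in region 3 of Blank and 5.22 CPM (2.99 to 8.48) in region 12 of Col_nHA. In Col_nHA no neighbours at the top of these orders were separated by their intervals, and the highest Cd209a level there was 9.38 CPM at a resolution of 1.0. Region 3 alone held 41.9% of the Cd209a UMIs and 41.3% of the Cd163 UMIs of Blank.

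Chil3 had a different map. In Col_nHA it was highest in region 15, led by the monocyte gene Ly6c2 and the interferon-induced chemokine gene Cxcl10, at 166 CPM (150 to 183). There 102 of 168 spots held a Chil3 UMI. Region 7 followed at 79.0 CPM (71.6 to 86.9) and region 9 at 68.1 CPM (59.7 to 77.4), with overlapping intervals. In Blank it was highest at 41.0 CPM (29.8 to 55.0) in region 7 as well, above the 21.1 CPM of region 6. In region 7 of Blank, a list of neutrophil genes took 0.132% of UMIs, against 0.0242% over all Blank spots. A list of monocyte genes took 0.609% against 0.471%. Most counts of that list came from the fibronectin gene Fn1, which had 119111 Blank UMIs. Thbs1 followed with 9506, while Ccr2 had 1673 and Ly6c2 793. Shares of the monocyte list therefore rank spots mainly by Fn1 and cannot show where monocytes lay. In the 20% of Blank spots with the largest share of that list, Chil3 stood at 9.08 CPM, against 14.2 CPM in the other spots. In Col_nHA the values were 55.2 and 43.8 CPM. In the 20% of Blank spots richest in neutrophil genes, Chil3 stood at 31.9 CPM, against 8.71 CPM in the other spots, 3.66 times (2.98 to 4.49) as much. The part of either cell type in the Chil3 levels was not tested. At a resolution of 0.3 the highest Col_nHA level of Chil3 was 94.2 CPM.

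Chil3 differed from Mrc1 and Folr2 in the lists it followed, and the other members did not all follow those 2. Over the 19 region sums, log2 levels of Mrc1 and Folr2 had Pearson r of 0.85 and 0.85 with the resident macrophage list. With the dendritic cell list their r was 0.81 and 0.59, and with the common macrophage list 0.54 and 0.54. For Cd163, Retnla, Clec10a and Cd209a, r with the common macrophage list was -0.21, -0.26, 0.04 and 0.03. With the resident list their r was 0.57, 0.42, 0.74 and 0.52 in the same order. It was not the list that each followed best. Their r was 0.62, 0.72, 0.72 and 0.51 with the fat list and 0.77, 0.65, 0.72 and 0.68 with the mast cell list. With the dendritic cell list it was 0.46, 0.41, 0.68 and 0.70. The r of Chil3 was -0.14 with the resident list, 0.29 with the dendritic cell list, 0.67 with the common macrophage list and 0.85 with a list of foreign-body macrophage and osteoclast genes such as Spp1, Gpnmb and Acp5. Between members, r was 0.84 for Retnla and Clec10a, 0.81 for Cd163 and Clec10a, and 0.75 for Mrc1 and Folr2, while Chil3 had r from -0.47 to 0.21 with the other members. These values describe points that share 2 libraries and carry no test. Of the genes tested for likeness, the 5 most similar to Mrc1 were the endosomal gene Rab11fip5 (r 0.94), Fgd2, Slc9a9, Irak3 and Axl (0.88). For Folr2 they were Stard8 (0.88), Lyl1, Itsn1, F13a1 and C1qc (0.84), and for Cd163 they were Kitl (0.87), Tnxb, C4b, Pi16 and Steap4 (0.82). Clec10a was most like Ly6c1 (0.92), Clec3b, C1s1, Col6a6 and Selenbp1 (0.88), and Retnla most like Gsn (0.86), Clec10a, Ccl11, Pi16 and Clec3b (0.83). The genes most like Chil3 were Cd300lf (0.91), Galnt6, Fam96a, Kcnn4 and F10 (0.88). Those most like Cd209a were 9130204L05Rik (0.79), Il11ra1, Mid1, H2-Ab1 and Fam53c (0.77).

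Retnla UMIs were concentrated in few spots. The 1% of spots with most Retnla held 53.4% of its UMIs in Blank (22 spots) and 65.8% in Col_nHA (25 spots), against 6.42% and 8.19% for Mrc1. After each spot was thinned to 2000 UMIs, the variance over the mean of Retnla counts was 2.25 in Blank and 2.99 in Col_nHA, where even sampling gives 1. The other 6 genes had values from 0.994 to 1.40. A single Col_nHA spot of 11019 UMIs held 63 of the 237 Retnla UMIs, and a single Blank spot held 73 of 691. Without the spot with most Retnla in each section, the ratio was 0.215 (0.181 to 0.255).

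**Figure D3:**
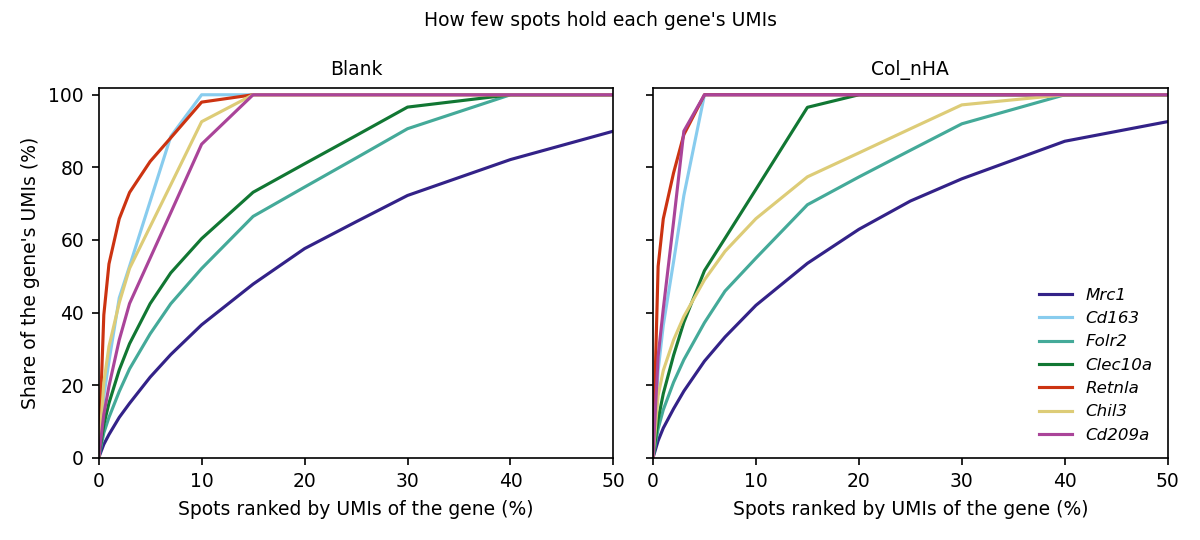
Cumulative share of each gene's UMIs (vertical axis, %) held by spots ranked from most to fewest UMIs of that gene (horizontal axis, % of spots), for each section. The Retnla curve rises most steeply at the left of both panels, with 53.4% and 65.8% of its UMIs in 1% of spots, and the Mrc1 curve rises most slowly.

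In Blank, 16 spots held at least 10 Retnla UMIs, and together they held 47.5% of the gene's UMIs. Of these, 8 lay in the Bglap-led region 2 and 5 in the Cfd-led region 3. Other members were also dense in these 16 spots. Clec10a stood at 412 CPM against 44.1 CPM in all other Blank spots, Cd163 at 110 against 7.42, Mrc1 at 446 against 146 and Folr2 at 225 against 44.2. Chil3 did not share the rise, at 8.49 against 12.8 CPM from 2 and 389 UMIs. The common macrophage list took 0.854% of UMIs in these spots and 0.705% elsewhere, and the fat list 0.427% and 0.0662%. The resident macrophage list without the members took 0.830% and 0.294%, the dendritic cell list 0.449% and 0.172% and the mast cell list 0.0705% and 0.0134%. The Retnla-rich spots of Blank were thus rich in 4 other members more than in common macrophage transcripts. That rise was not particular to the members, since these other lists rose as well. Only 2 Col_nHA spots reached 10 Retnla UMIs, 1 of them in the Myh4-led region 14, which held 60.3% of Col_nHA Retnla, or 46.0% without that section's top spot.

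Retnla lay beside transcripts of the fat and muscle lists in both sections. In the fifth of spots with the largest share of fat genes, the Blank level of Retnla was 99.5 CPM against 9.45 CPM in the other spots, 10.5 times (8.997 to 12.4) as much. In Col_nHA the levels were 21.9 and 2.42 CPM, 9.06 times (6.88 to 12.0) as much. The fifth richest in muscle genes held 75.1% of the Col_nHA Retnla UMIs, at 18.6 times (13.8 to 25.4) the level of other spots. A single spot weighs on these values: without the Col_nHA spot that held 63 Retnla UMIs, the share was 66.1%, the level 12.0 times (8.72 to 16.8) that of other spots beside muscle genes and 5.43 times (3.99 to 7.41) beside fat genes. The fat list itself took 0.0690% of Blank and 0.0238% of Col_nHA UMIs, with 8 of its 10 genes at 10 CPM and 7 of those at least 2-fold lower. The part of fat in the Retnla difference was not tested, and once spots rich in other tissues were left out the log2 ratio of Retnla was -3.08 in place of -1.93.

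Cd163 and Clec10a followed fat genes in Blank as well, at 5.19 times (4.02 to 6.70) and 4.70 times (4.23 to 5.22) the level of other spots. Mast cell transcripts lay beside them too, and the fifth of Blank spots richest in mast cell genes held Cd163 at 5.09 times (3.94 to 6.57) the level of the rest. Values were larger in the fifth of Blank spots richest in resident macrophage genes. There Retnla was 14.1 times (11.8 to 16.8), Cd163 7.51 times (5.79 to 9.77) and Clec10a 6.08 times (5.47 to 6.76) the level of the rest. In Col_nHA Retnla was not raised beside that list, at 5.73 against 5.93 CPM. Chil3 was not raised beside fat in either section, with 1.31 times (0.997 to 1.70) in Blank and 0.436 times (0.368 to 0.512) in Col_nHA. In the fifth of Col_nHA spots richest in foreign-body macrophage and osteoclast genes, Chil3 was 2.68 times (2.44 to 2.94) and Cd163 0.200 times (0.0846 to 0.406) the level of the rest. Chil3 and Cd163 thus marked opposite ends of that list in the section with the material.

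The last comparison asked whether the section ratios also held between spots of like profile. In region 2, led by the bone genes Bglap, Bglap2 and Ibsp, with 123 Blank and 100 Col_nHA spots, 5 of the 7 genes were at least 2-fold lower in Col_nHA and 1 was at least 2-fold higher. Of the 9459 genes that reached 10 CPM in region 2 of either section, 5.28% were lower and 3.83% higher by as much. Retnla had 251 UMIs in Blank, spread over 35 spots, and 0 in Col_nHA. Retnla was 74.98-fold lower when a floor of 3 counts was set for the Col_nHA spots of the region. The exact interval of its ratio reached up to 0.0165. Without its top spot Retnla stood at 115 CPM in Blank. Clec10a fell from 75.1 to 4.22 CPM, a ratio of 0.0563 (0.0202 to 0.126). Cd163 had 41 and 3 UMIs there and a ratio of 0.0816 (0.0162 to 0.256). The drop was smaller for the 2 receptors that were closer to 1 over all spots, Folr2 and Mrc1, with ratios of 0.190 (0.102 to 0.331) and 0.372 (0.287 to 0.477). Chil3 went the other way, from 6 to 59 UMIs, a ratio of 10.97 (4.75 to 31.1), though 1 Col_nHA spot held 20 of the 59. For Cd209a, with 5 and 4 UMIs, no difference was detectable at this depth.

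The bone-led spots of the 2 sections held like amounts of common macrophage transcripts, 0.441% of UMIs in Blank and 0.417% in Col_nHA. The resident macrophage list without the members took 0.326% and 0.108%, the fat list 0.0806% and 0.0211% and the mast cell list 0.0148% and 0.00268%. The part of the fat and mast cell transcripts in these ratios was not tested. At a resolution of 1.0 the Bglap-led region gave ratios of 0.349 for Mrc1, 0.172 for Folr2 and 4.48 (2.54 to 8.35) for Chil3, and Retnla again had 251 and 0 UMIs.

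**Figure D4:**
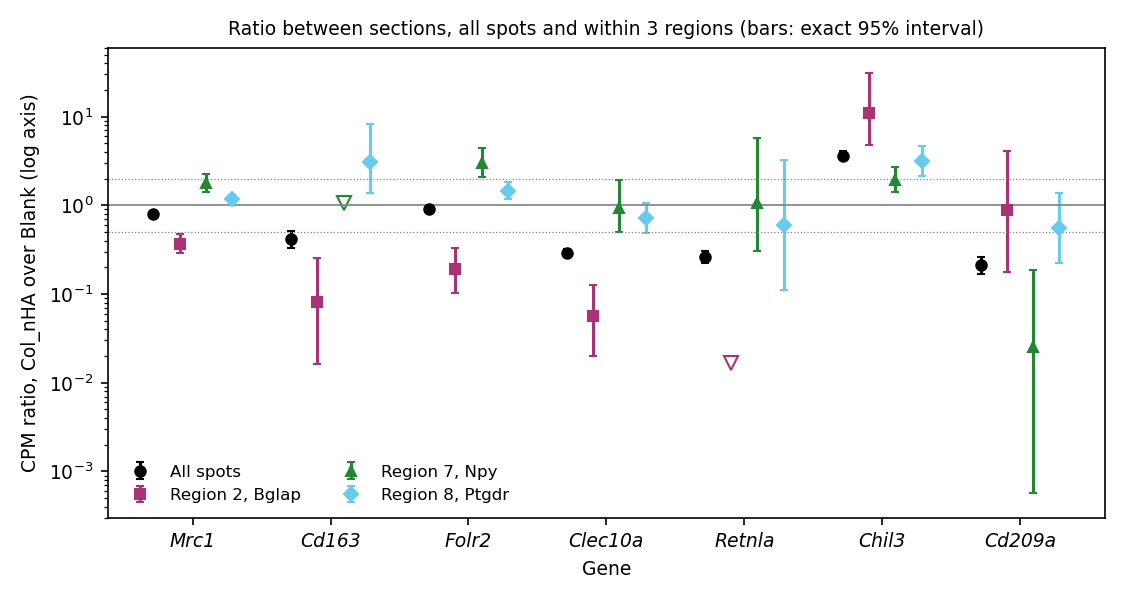
CPM ratio of Col_nHA over Blank on a log axis for each gene, over all spots (black) and within the 3 regions that held at least 50 spots of each section, with exact 95% intervals, a solid line at 1 and dotted lines at 2-fold. Open triangles mark the upper bound where Col_nHA had 0 UMIs. Mrc1 and Folr2 lie below 1 in the Bglap-led region 2 and above 1 in regions 7 and 8, though Folr2 in the Ptgdr-led region had a ratio of 0.822 at a resolution of 0.3.

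In the other 2 shared regions Mrc1 had ratios above 1, as had Folr2 in region 7. In region 7, led by Npy and Spp1, with 50 Blank and 300 Col_nHA spots, Folr2 rose from 30.7 to 92.4 CPM, a ratio of 3.01 (2.11 to 4.42). Mrc1 had a ratio of 1.78 (1.41 to 2.27) there and Chil3 of 1.93 (1.41 to 2.69), while Cd209a had 8 and 1 UMIs, a ratio of 0.0251 (0.000565 to 0.187). Clec10a in region 7 had a ratio of 0.936 (0.496 to 1.92) and Retnla of 1.07 (0.306 to 5.73), and Cd163 had 2 and 0 UMIs, too few for a ratio. Thus 1 member, Folr2, was higher and 1, Cd209a, was lower by at least 2-fold in region 7. Of the 9556 genes that reached 10 CPM there, 2.03% were higher and 3.62% lower by as much. Cd209a, at 7.45 and 0.187 CPM, was not among those genes. In region 8, led by the meningeal gene Ptgdr, with 230 and 338 spots, Mrc1 had a ratio of 1.18 (1.05 to 1.32), Folr2 of 1.47 (1.18 to 1.84), Chil3 of 3.13 (2.15 to 4.70) and Cd163 of 3.11 (1.37 to 8.28) from 7 and 36 UMIs. Clec10a, Retnla and Cd209a there had ratios of 0.723 (0.491 to 1.07), 0.605 (0.113 to 3.25) and 0.554 (0.222 to 1.37). By 2-fold or more, 2 members were higher and 0 lower in region 8, beside 1.97% and 1.55% of the 9782 genes that reached 10 CPM there. Cd163, at 1.82 and 5.67 CPM, was not among those genes. The common macrophage list also took a larger share in Col_nHA there, 1.23% against 0.650% in region 8 and 1.99% against 1.35% in region 7. Its part in these ratios was not tested. Clustered at a resolution of 0.3, the Ptgdr-led region gave Folr2 a ratio of 0.822 (0.664 to 1.01), so no direction is drawn for Folr2 in it, and the Ptgdr-led region gave Chil3 1.69 and Cd163 1.91 (1.04 to 3.54). The Npy-led region at that resolution gave Folr2 1.90 (1.36 to 2.72), Chil3 1.07 (0.786 to 1.502) and Cd209a 0.169 (0.0674 to 0.461) from 8 and 15 UMIs. At a resolution of 1.0 the Ptgdr-led region gave Folr2 1.25 (0.949 to 1.65), Chil3 1.85 (1.16 to 2.98) and Cd163 4.50 (1.87 to 12.4).

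Detection per spot gave the same order of sections as the levels. With every spot thinned to 2000 UMIs, Mrc1 was found in 27.3% (25.4 to 29.1) of Blank and 18.3% (16.8 to 19.9) of Col_nHA spots, against 70.3% and 64.3% unthinned. For Clec10a the shares were 9.96% (8.75 to 11.3) and 2.63% (2.04 to 3.34), against 32.2% and 15.8% unthinned. They were 2.18% (1.62 to 2.87) and 7.69% (6.67 to 8.81) for Chil3, against 11.3% and 32.1% unthinned. Folr2 differed by less than its counting error, at 8.71% (7.58 to 9.96) and 8.50% (7.43 to 9.67), against 35.8% and 35.5% unthinned. Few thinned spots held a pair of members, and Spearman rho between their thinned counts lay from -0.03 to 0.12 over 21 pairs in Blank and from -0.04 to 0.08 in Col_nHA, too weak to read in counts this sparse.

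**Figure D5:**
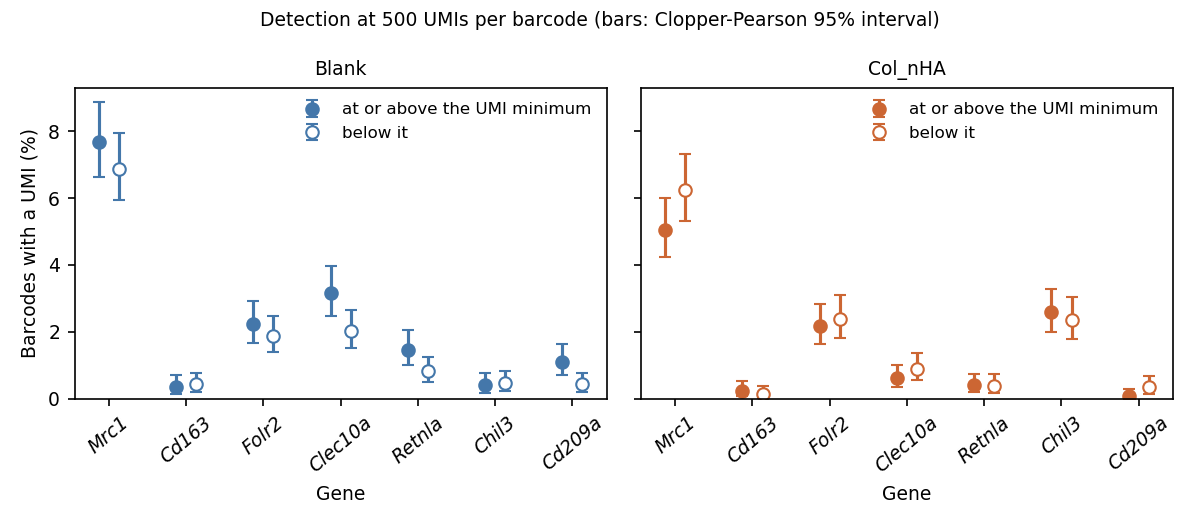
Share of barcodes with a UMI of each gene (vertical axis, %) after thinning to 500 UMIs, for spots (filled) and for barcodes below the UMI minimum (open), with Clopper-Pearson 95% intervals, by section. Filled and open points lie close together for most genes, as for Folr2 at 2.22% and 1.88% in Blank.

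Barcodes below the UMI minimum held the same genes, at shares that differed more for some than for others. At 500 UMIs, Mrc1 was found in 7.69% of Blank spots and 6.88% of the barcodes below, and in 5.06% and 6.25% in Col_nHA. Clec10a was found in 3.16% and 2.03% in Blank and 0.607% and 0.899% in Col_nHA, and Retnla in 1.47% and 0.821% in Blank and 0.405% and 0.385% in Col_nHA. Cd209a was found in 1.11% and 0.430% in Blank and in 0.0809% and 0.343% in Col_nHA. Since barcodes below the minimum hold these genes too, a single UMI in a spot does not show that the spot's own cells express the gene. In regions of at least 50 Blank spots Retnla ranged from 1.04 to 158 CPM, which is not an even background.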

How the data were processed

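Each of the 2 matrices deposited by the authors gives the unnormalised UMI count of every gene in every barcode. They were made with Space Ranger on mm10, per the submitters' processing notes, of a version not given in the sources used here, and the file headers name Cell Ranger 4. Per the labels the sections were fresh frozen, while the extraction text describes a droplet single-cell library. Both files list the same 4992 barcodes, with 34868368 Blank and 45137685 Col_nHA UMIs. Barcodes within 10% of the UMI minimum numbered 265 in Blank and 215 in Col_nHA. No image or spot position was used.

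UMIs were summed over spots and scaled to CPM. Intervals are exact: Poisson for CPM, conditional binomial for ratios and Clopper-Pearson for shares. These intervals cover counting error alone. For log2 ratios over all spots and for shares of genes past 2-fold, counts below 3 were set to a floor of 3. Shares used counts thinned without replacement. Regions came from 10000-count scaling, log transform, 2000 variable genes without the members, 30 components, 15 exact neighbours and Leiden at a resolution of 0.6. Leading genes had the largest fold among genes with at least 50 CPM in the region. Doublet calling does not apply to spots.

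The members and the 19 gene lists were chosen with earlier results of these data known; 221 of 222 list symbols were found. The naming rule took all members and the 5 genes most like each, and allowed paralogs and, per list, the 2 most abundant genes and the 2 with the largest difference; not all of these are printed. Lyve1, Gas6, Pf4, Klf4, Il4, Il13, Stat6, Il34, Zbtb46, Xcr1 and Klrd1 were named after their values were seen. Alternatives were other UMI minimums, scalings (TMM from edgeR 4.0.16, median of ratios, a total that leaves out haemoglobin, ribosomal and mitochondrial genes), mean per-spot CPM, spots of 5000 to 15000 UMIs, macrophage UMIs as denominator, CPM minimums, other thinning and resolutions, and removal of spots rich in other tissues. Calculations were tested on simulated data. Software was Python 3.11.15, scanpy 1.11.5, scipy 1.17.1 and igraph 0.11.9.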

Additional observations from a re-analysis of the deposited data

Results flagged for a closer look

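Ratios of 3 receptor genes pointed in opposite directions between regions of like profile, with intervals clear of 1 on both sides. Mrc1 had a ratio of 0.372 in the Bglap-led region 2, 1.78 in the Npy-led region 7 and 1.18 in the Ptgdr-led region 8. For Folr2 the ratios were 0.190, 3.01 and 1.47 in the same order. Cd163 had ratios of 0.0816 in region 2 (0.0162 to 0.256, from 41 and 3 UMIs) and 3.11 in region 8. The difference between regions was not tested, since each region holds spots of 1 section per group. With a resolution of 0.3 the Folr2 ratio in the Ptgdr-led region was 0.822, and no region led by Bglap held 50 spots of each section.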

How the results depend on the processing

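No paired analysis was possible because each group held 1 section. Under 11 alternatives, 4 of the 7 members stayed at least 2-fold lower and 1 at least 2-fold higher. With a minimum of 50 CPM, 1 member was left to count, and both counts were 0. The median log2 ratio of the members, -1.27, was -1.72 per macrophage UMI. The log2 ratio of Folr2, -0.12, became 0.00122 without the spots rich in other tissues. With no CPM minimum, 3.46% of 20569 genes were at least 2-fold higher and 9.95% lower, and without the spots rich in other tissues 1.56% and 2.20% of 9663 genes, the second a lower share than the 3.40% reported. Per macrophage UMI the median over all genes shifted to -0.44, with 0.660% higher and 7.67% lower. The spots of 5000 to 15000 UMIs gave 247 higher and 554 lower genes, against 180 and 335. Leaving out the spot with most UMIs of a gene was chosen after the data were seen and moved the log2 ratio of Retnla from -1.93 to -2.22. Without the Col_nHA spot richest in Retnla, also chosen after the data were seen, Retnla beside fat genes was 5.43 in place of 9.06 times the level of other spots. Cd163 and Cd209a in Col_nHA rest on 137 and 100 UMIs, which limits their regional values.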
